A study of Mus musculus with 5 samples.

Results

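The muscle acetylcholine receptor genes are the 4 subunit genes of the fetal receptor, Chrna1, Chrnb1, Chrnd and Chrng, and 2 genes of its clustering partners, Rapsn and Musk. They were chosen by name, as the rows of the deposited table that carry these 6 symbols, out of 19699 gene entries, and all 6 were found. The choice was made with the difference between mutants and controls in these libraries known, so that difference is a description for the 6 genes. Counts of those past the threshold are given beside the share of all genes and again for alternative fits, and they support nothing.

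RNA was sequenced from the main airway part of mouse embryos at E13.5, a piece that took in trachea and lung. The mutants (n = 2) had Prmt5, which encodes an arginine methyltransferase, removed in the lung epithelium, and the controls (n = 3) were littermates given as WT. The design text joins Shh to Prmt5 in the name of the mutant embryos and does not spell out the alleles or the driver of the deletion. The genotype label calls the mutants a knockdown, the strain is C57, and the number of embryos behind each library is not stated, so p-values measure only the spread between libraries, and that may be technical.

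The muscle nicotinic receptor is a ring of 5 subunits that opens a cation channel when acetylcholine binds. In the embryo the ring holds Chrna1, Chrnb1, Chrnd and Chrng products, and after birth Chrne, the adult subunit, takes the place of Chrng. Musk encodes the receptor tyrosine kinase that nerve-derived agrin activates through Lrp4, and Rapsn encodes rapsyn, the scaffold that packs receptors under the nerve ending. The genes are switched on as myoblasts fuse, by muscle transcription factors such as MyoD and myogenin that bind E-boxes, short DNA motifs of the form CANNTG.

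RefSeq promoters (GRCm38.p6) were at hand for 4 of the 6 genes, Chrna1, Chrnb1, Chrng and Musk. Stretches upstream of the start sites of 3 of them are shown here because Chrna1 and Chrng were 14.0-fold or more lower in the mutants and Chrnb1 was the least reduced of the 6. Each runs 5′ to 3′ on the gene's own strand, and capitals mark E-boxes (CANNTG).

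Chrna1: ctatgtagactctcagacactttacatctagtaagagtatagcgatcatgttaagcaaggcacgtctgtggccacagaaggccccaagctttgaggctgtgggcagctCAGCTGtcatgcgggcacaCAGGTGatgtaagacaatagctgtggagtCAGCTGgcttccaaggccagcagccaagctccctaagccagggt
Chrng: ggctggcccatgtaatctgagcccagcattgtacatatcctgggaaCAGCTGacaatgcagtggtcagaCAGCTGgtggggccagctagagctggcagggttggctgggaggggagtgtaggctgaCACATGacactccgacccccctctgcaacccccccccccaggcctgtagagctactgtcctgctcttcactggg
Chrnb1: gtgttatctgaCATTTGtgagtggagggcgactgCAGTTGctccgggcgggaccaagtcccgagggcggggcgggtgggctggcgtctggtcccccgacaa

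The Chrna1 stretch is chr2:73580339-73580538 on the minus strand, and the Chrng stretch is chr1:87205610-87205809 on the plus strand, inside the gene's longest annotated transcript but outside its exons. The Chrnb1 stretch is chr11:69795967-69796067 on the minus strand, 29 bases before its RefSeq start, and it was kept short because exons of Fgf11 lie next to it. Over the 250 bases before the start, Chrna1, Chrng, Chrnb1 and Musk each held 3 E-boxes of the form CANNTG on either strand. Of the 32851 promoters in the RefSeq table, 66.2% held at least 1 and 31.8% held 2 or more. The share with 3 or more was not counted. The E-box CAGCTG, which is counted among the CANNTG matches too, was found in 13.0% of all promoters. It stood 92 and 44 bases before the start of Chrna1, 155 and 132 bases before that of Chrng and 68 bases before that of Musk. Having 2 or more CAGCTG was seen in 1.26% of all promoters. Chrnb1 held no CAGCTG. It had a CAGGTG or CACCTG 29 bases before its start, just past the end of the stretch shown. That form was found in 17.2% of promoters. The N-box CCGGAA, a motif of genes transcribed under the nerve ending, was in none of the 4 windows and in 12.0% of all promoters. The CArG box and the MEF2 site, found in 1.47% and 2.92% of all promoters, were in none of the 4 windows either. A match is a run of letters and not a measured binding site.

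By the GENCODE M21 annotation (GRCm38), Chrnd (chromosome 1, 87190607 to 87200070, plus strand) and Chrng (chromosome 1, 87204657 to 87212694, plus strand) are neighbours with 4586 bases between them. Chrna1 (chromosome 2, 73563215 to 73580338, minus strand) and Rapsn (chromosome 2, 91035620 to 91045729, plus strand) share a chromosome but lie 17455281 bases apart. Chrnb1 is on chromosome 11 (69784036 to 69795943, minus strand) and Musk on chromosome 4 (58285960 to 58374303, plus strand). The only exon bases any of the 6 shares with another gene are 4 bases of Rapsn, which Gm13778 has on the opposite strand. No run of 50 bases in the transcripts of Chrnb1, Chrnd, Chrng, Rapsn or Musk was found in transcripts of another gene, and for Chrna1 3.02% of such runs were. The longest run of identical bases between 2 of the 6 genes was 30, between Chrna1 and Chrnb1.

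The values are FPKM, fragments per kilobase of gene scaled to library size, and the reads behind each were recovered from the steps between values, with 15652503 to 18682463 reads per library. Prmt5 itself stood at 23.7 and 20.1 FPKM in mutant libraries against 28.7, 26.4 and 25.8 FPKM in control libraries, 18.7% lower on average. Libraries differed in ways that the genotype does not name. Control replicate 1 was richest in lung epithelial RNA, with 493 FPKM summed over Epcam, Cdh1, Nkx2-1, Krt8, Krt18 and Foxa2 against 175 to 250 FPKM in the other libraries. Control replicate 3 and mutant replicate 2 were richest in heart muscle RNA, with 800 and 346 FPKM summed over 9 heart genes against 128 to 194 FPKM in the others. An estimate from Y-linked genes and Xist put the male share of RNA near 100% in the mutants (99.8% and 100%) and at 15.5% to 65.5% in the controls, so sex and genotype cannot be told apart in full.

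All 6 receptor genes were lower in the mutants, from 2.53-fold for Chrnb1 to 32.2-fold for Chrna1 by pooled reads. For each of the 6, both mutants lay below all 3 controls, which was also true of 24.4% of the 12838 genes tested, while 13.2% had both mutants above all controls. Less RNA per muscle cell and fewer muscle cells cannot be told apart in whole tissue. The levels in every library are given next, beginning with the subunits.

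Chrna1 encodes the α subunit, which carries the acetylcholine-binding site. It was at 0.0434 and 0.0728 FPKM in mutant libraries against 2.20, 1.55 and 1.83 FPKM in control libraries. These values rested on 3 and 5 reads in the mutants and on 180, 111 and 146 reads in the controls. The groups stood far apart and the 3 controls were close together. Pooled per library total, controls had 32.2-fold more Chrna1 reads, with an exact 95% interval of 16.2 to 75.2 that covers counting error only. On the scale of log2(FPKM + 1), where low genes change less than their fold, the difference was -1.43 (SE 0.19).

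Chrng encodes the γ subunit of the fetal receptor. It was at 0.122 and 0.138 FPKM in mutant libraries (8 and 9 reads) against 1.54, 2.02 and 1.94 FPKM in control libraries, from 120, 137 and 147 reads. The mutants were nearly equal, and control replicate 1, the highest control for Chrna1, was the lowest for Chrng. The ratio of pooled reads was 14.0 (95% interval 8.65 to 24.3).

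Chrnd encodes the δ subunit. It was at 0.0386 and 0.0777 FPKM in mutant libraries (2 and 4 reads) against 0.960, 0.821 and 0.785 FPKM in control libraries, from 59, 44 and 47 reads. No library reached 1 FPKM, so Chrnd did not enter the test across genes. The ratio of pooled Chrnd reads was 14.8 (95% interval 6.62 to 40.9).

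Chrnb1 encodes the β subunit and stood apart from the other 3. It was at 3.94 and 3.18 FPKM in mutant libraries (157 and 126 reads) against 10.1, 7.71 and 9.06 FPKM in control libraries, from 476, 318 and 418 reads. The groups did not overlap, but the mutants kept RNA that the other subunits lacked, and the ratio of pooled reads was 2.53 (95% interval 2.22 to 2.89). Chrnb1 made up 95.1% and 91.7% of the summed FPKM of the 4 subunits in the mutants and 68.2%, 63.7% and 66.6% in the controls.

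Rapsn, the scaffold gene, was at 0.387 and 0.922 FPKM in mutant libraries (11 and 26 reads) against 3.30, 2.52 and 4.05 FPKM in control libraries, from 111, 74 and 133 reads. As a ratio, the mutants differed from each other more than for Chrnb1 or Chrng, and mutant replicate 2 was the higher. The ratio of pooled reads was 5.07 (95% interval 3.60 to 7.34).

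Musk, the kinase gene, had 0.0168 and 0.0338 FPKM in mutant libraries on 1 and 2 reads, too few to order it against Chrna1 and Chrnd. Control libraries had 1.08, 0.341 and 0.581 FPKM on 76, 21 and 40 reads. Relative to their mean they spread more widely than those of any subunit, and 1 library of the 5 reached 1 FPKM, so Musk was not tested either. The ratio of pooled reads was 27.0, and 3 mutant reads left its 95% interval wide, at 9.03 to 132.

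**Figure D1:**
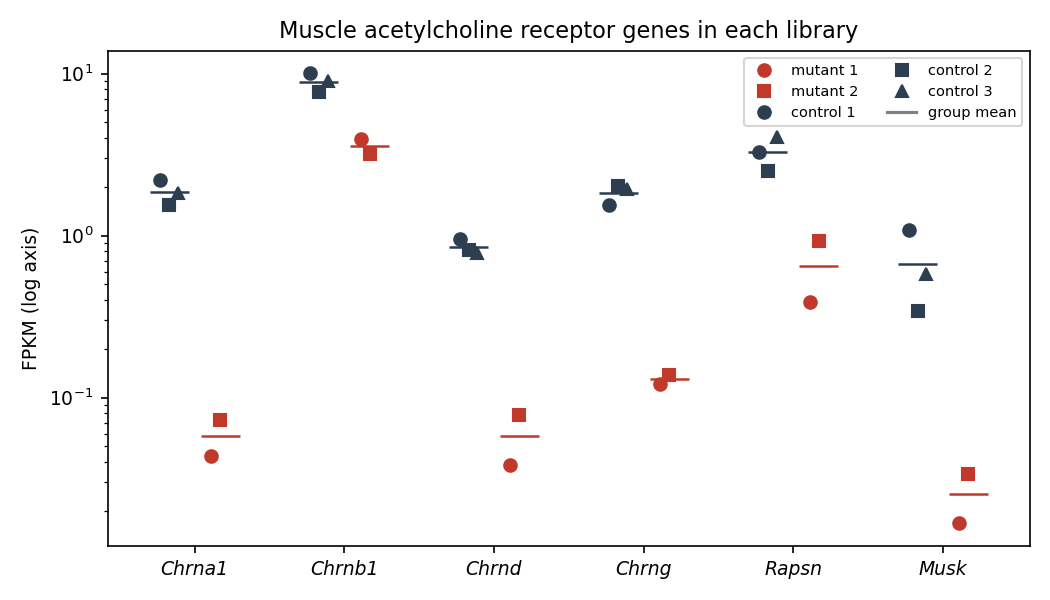
FPKM of each of the 6 genes in each library on a log axis, with controls (dark) left and mutants (red) right of each position and lines at the group means. Chrnb1 keeps 3.18 to 3.94 FPKM in the mutants, while Chrna1, Chrnd and Musk lie below 0.1 FPKM there.

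The order of levels per kilobase was much alike in both groups, with Chrnb1 first and Rapsn next in all 5 libraries. In the controls Chrnb1 ranged from 7.71 to 10.1 FPKM and Rapsn from 2.52 to 4.05 FPKM, without overlap. Chrna1 (1.55 to 2.20 FPKM) and Chrng (1.54 to 2.02 FPKM) came next and overlapped each other. Chrnd (0.785 to 0.960 FPKM) and Musk (0.341 to 1.08 FPKM) came last and overlapped as well. In the mutants Chrng followed Rapsn in both libraries, and Chrna1, Chrnd and Musk, on 1 to 5 reads a library, could not be ordered.

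Within a library the ratio of Chrng to Chrna1 FPKM was 2.81 and 1.90 in the mutants and 0.702, 1.30 and 1.06 in the controls. The ratio of Chrnb1 to Chrna1 was 90.7 and 43.7 in the mutants against 4.58, 4.96 and 4.96 in the controls. The mutant ratios rest on 3 and 5 reads of Chrna1 and are thus imprecise. They show the gap between the β subunit and the rest that the separate levels showed, in each mutant.

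With limma on log2(FPKM + 1), genes needed 1 FPKM or more in at least 2 libraries, and 4 of the 6 qualified. Chrna1, Chrng and Rapsn qualified through the controls alone, and Chrnb1 reached 1 FPKM in all libraries. All 4 were past an adjusted p of 0.05, lower in the mutants, where 1.37% of all genes tested were lower, 0.989% higher and 2.36% passed in either direction. Since this difference chose the genes, nothing is read from that count. The log2 differences were -1.12 (SE 0.15) for Chrnb1, -1.32 (SE 0.18) for Chrng and -1.38 (SE 0.22) for Rapsn, and -0.81 for Chrnd and -0.68 for Musk from their values alone. The median over the 6 was -1.22, and over all genes tested it was -0.06. When the male RNA share entered as a covariate, 0 of the 4 passed, and of all genes tested 3 did. Fits without mutant replicate 1 or mutant replicate 2 leave 1 mutant library. There the calls of the 4 were lost, as were those of most genes past the threshold. Without control replicate 1 or 3 Rapsn was lost, and without control replicate 2 Chrng was.

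The receptor has further partners at the synapse, not all of them in Musk signalling and not all particular to muscle. A list of 24 genes of such partners was looked at, of which 23 were tested. None of the 23 passed with limma, while 5 had an unadjusted p under 0.05, and voom on the recovered reads passed 2, Dok7 and Ache. Dok7, the adaptor that activates Musk from inside the cell, was at 0.475 and 0.344 FPKM in mutant libraries against 1.36, 1.21 and 1.41 FPKM in control libraries (log2 difference -0.72, SE 0.18, limma adjusted p = 0.0856). The groups of Dok7 were clear of each other. Ache, which encodes the esterase that splits acetylcholine, was at 0.769 and 0.608 FPKM in mutant libraries against 1.52, 2.20 and 2.92 FPKM in control libraries (log2 difference -0.91, SE 0.22, limma adjusted p = 0.082). It passed without control replicate 1 (limma adjusted p = 0.0473).

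Agrn, the agrin gene, was at 42.9 and 35.8 FPKM in mutant libraries against 54.7, 45.7 and 53.4 FPKM in control libraries (log2 difference -0.37, limma adjusted p = 0.18). Lrp4, the agrin receptor, was at 4.42 and 3.80 FPKM in mutant libraries against 4.97, 4.41 and 4.09 FPKM in control libraries, and the groups overlapped (limma adjusted p = 0.751). Lama5, a laminin chain of basement membranes, had a log2 difference of 0.51 (limma adjusted p = 0.228). The median log2 difference of the 23 partners was -0.08, and by pooled reads their ratios of control to mutant ran from 0.705 to 3.25.

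Chrne, the adult subunit, had 2 reads in mutant replicate 1 and 0 reads in the other 4 libraries. For the pooled controls 0 reads allow up to 3, or 0.0334 FPKM, so Chrne was not detectable in the controls at this depth.

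**Figure D2:**
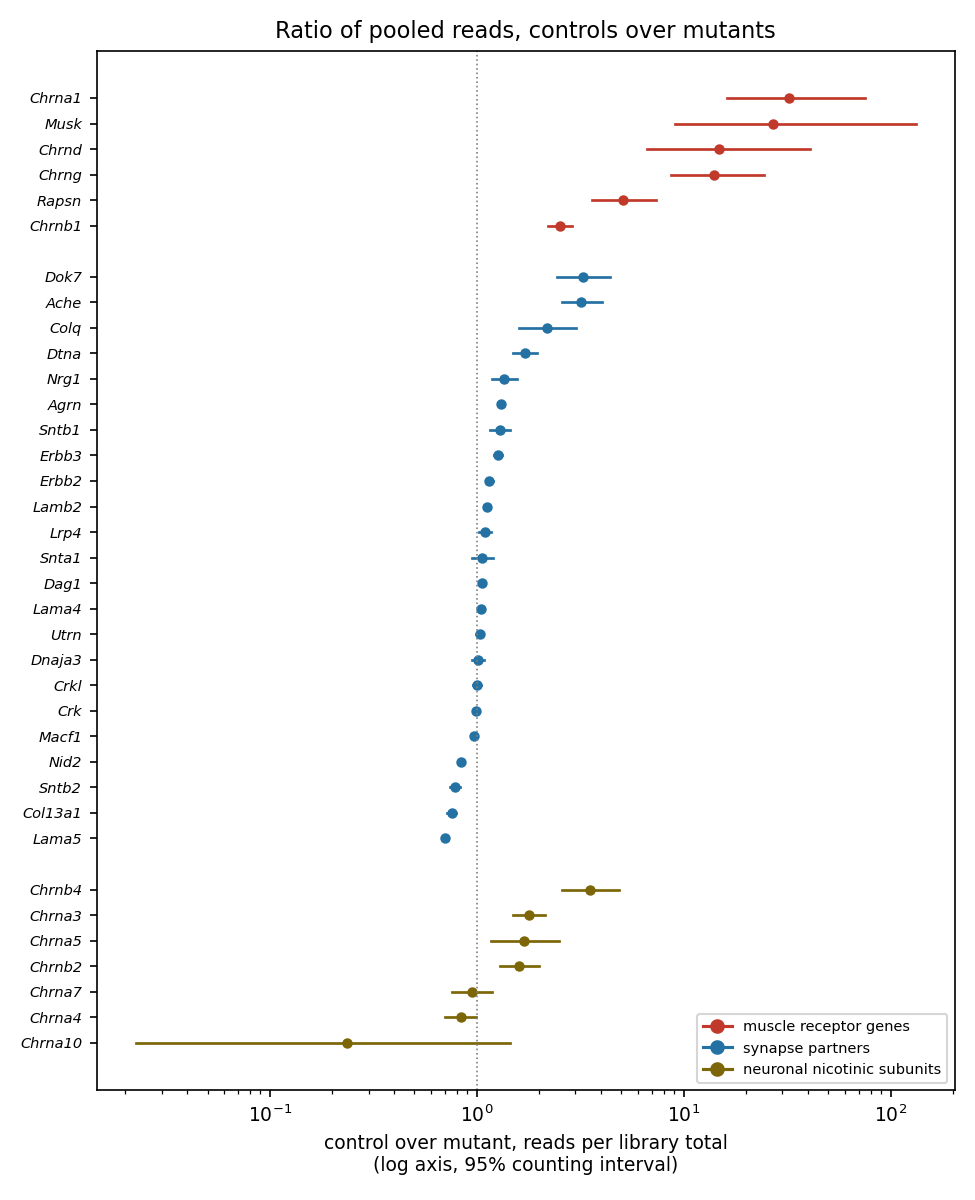
Ratio of pooled reads, controls over mutants, each scaled by the library totals, on a log axis with exact 95% intervals for counting error, for the 6 receptor genes, the 23 partner genes with reads in both groups and 7 neuronal subunits. Chrna1, Musk, Chrnd and Chrng sit at 14.0 to 32.2, while Dok7 and Ache lead the partner genes at 3.25 and 3.20.

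The neuronal nicotinic subunits form receptors of autonomic ganglia and brain, and some occur in other cells of the airway. Of 11 such genes 9 were in the table and 3 were tested, of which 0 passed with limma, 2 at an unadjusted p under 0.05, and 1 with voom. That 1 was Chrnb4, a ganglion subunit, at 0.437 and 0.440 FPKM in mutant libraries against 1.43, 1.58 and 1.62 FPKM in control libraries (log2 difference -0.82, SE 0.17, limma adjusted p = 0.057). Chrna3, its usual partner, was at 1.89 and 1.47 FPKM in mutant libraries against 3.29, 2.00 and 3.60 FPKM in control libraries (limma adjusted p = 0.226), and Chrna4 had a log2 difference of 0.15 (limma adjusted p = 0.705). Chrna7 was at 0.958 and 0.936 FPKM in mutant libraries, within the range of its controls, 0.640 to 1.17 FPKM. The pooled read ratios of neuronal subunits with 20 or more reads ran from 0.835 to 3.52.

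Genes that act after the receptor opens, in excitation of the muscle membrane and calcium release, were partly lower. Of 15 genes 10 were tested, and 2 fell, Atp2a1 and Cacng1, with a median log2 difference of -0.54 over those tested. The rest stayed below the filter. Their pooled read ratios of control to mutant were 10.4 for Cacna1s, 4.77 for Ryr1, 4.54 for Sypl2, 1.67 for Clcn1 and 1.45 for Scn4a. Atp2a1, the calcium pump of fast fibres, went from 4.89 ± 0.914 FPKM (SD, n = 3) to 0.44 ± 0.0798 FPKM (SD, n = 2; log2 difference -2.02, SE 0.18, limma adjusted p = 0.00641). Cacng1, a subunit of the muscle calcium channel, had 3 pooled mutant reads against 112 control reads (log2 difference -1.28, limma adjusted p = 0.0475). It did not pass with median ratio scaling, quantile normalization, TPM, the replicate block or without the filter (limma adjusted p = 0.0549 to 0.124). Stac3 and Jph1, genes of the coupling between membrane and calcium store, had log2 differences of -1.02 and -0.56 (limma adjusted p = 0.0505 and 0.166). Over all lists beside the receptor genes and their partners, 19 genes passed. That count was 1 without mutant replicate 1, 5 without mutant replicate 2 and 0 when the male RNA share was a covariate.

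A list of myogenic genes holds transcription factors of muscle, some of which control the receptor genes, and the fusion gene Mymk. Of its 6 genes tested 4 fell and 2 did not pass. Myog, the myogenin gene, was at 2.33 and 4.96 FPKM in mutant libraries against 37.0, 23.4 and 23.6 FPKM in control libraries (log2 difference -2.67, SE 0.28, limma adjusted p = 0.0077). Myod1 and Tmem8c, the older symbol of Mymk, fell, with log2 differences of -2.31 and -2.18 (limma adjusted p = 0.00862 and 0.00641). By pooled reads the ratio of controls to mutants was 7.76 (95% interval 6.64 to 9.12) for Myog and 7.73 (6.14 to 9.87) for Myod1, with intervals for counting error only.

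Among genes of the contractile apparatus, 10 of 17 tested fell and none rose, with a median log2 difference of -1.62. Myh3, the embryonic myosin heavy chain gene, and Acta1, the skeletal actin gene, fell, with log2 differences of -3.49 and -3.23 (limma adjusted p = 0.00641 and 0.0107). Tnnt1, a slow troponin gene, and Mybpc1, a myosin-binding protein gene, had differences of -1.67 and -1.59 (limma adjusted p = 0.0077 and 0.00795). In mutant replicate 2 Acta1 was at 7.18 FPKM against 1.86 FPKM in mutant replicate 1. Rapsn was also higher there (0.922 against 0.387 FPKM, 26 against 11 reads), and Chrnb1 was lower. Chrna1, Chrnd, Chrng and Musk had 2 to 9 reads there against 1 to 8 reads, too few to order the mutants.

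**Figure D3:**
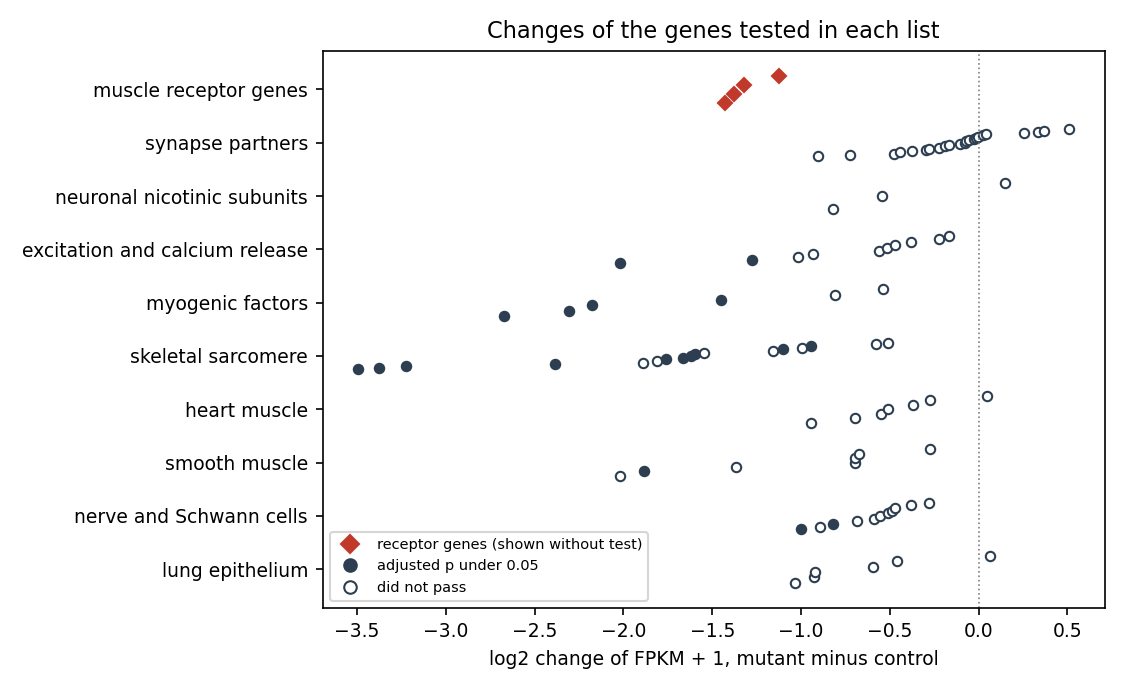
Difference of log2(FPKM + 1), mutant minus control, for each gene tested in 10 lists, with filled points past an adjusted p of 0.05 and the 4 receptor genes as red diamonds. All receptor, myogenic, sarcomere, excitation, smooth muscle and nerve genes shown lie left of 0, as do most heart and lung epithelial genes. The 23 synapse partners centre on 0 with a median of -0.08.

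The receptor genes were also set against the sarcomere genes of the same library. The measure was log2(FPKM + 1) of each gene minus the mean over 19 sarcomere genes. Some of these were highest in the heart-rich control replicate 3, such as Myl4 and Tnnc1, and others, such as Myh3 and Mybpc1, were not. Myl4 was at 11.5 and 39.1 FPKM in mutant libraries against 21.6, 20.4 and 76.9 FPKM in control libraries. The part of heart RNA in this reference was not tested. The median of the 6 differences between mutants and controls was 0.39, from 0.18 for Chrna1 to 0.93 for Musk, so on this scale the receptor genes were less reduced than the sarcomere genes. The sign depends on the pseudocount, which pulls low genes towards 0. With 0.1 FPKM in its place the median was -0.42, and with voom, which uses reads, -1.45. It was 0.0148 without mutant replicate 1 and 0.84 without mutant replicate 2.

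RNA of other cell types moved between libraries as well. Of 9 heart genes 7 were tested and 0 passed with limma, with Myh7, a slow myosin gene shared with skeletal muscle, at an unadjusted p under 0.05 and past the threshold with voom. Myl7, an atrial myosin gene, was at 98.2 and 286 FPKM in mutant libraries against 149, 147 and 623 FPKM in control libraries. The other heart genes of smallest p, Tnnt2 and Nkx2-5, had log2 differences of -0.69 and -0.37 (limma adjusted p = 0.591 and 0.752). The summed FPKM of the 6 receptor genes was 4.55 and 4.42 in the mutants and 19.1, 15.0 and 18.2 in the controls, a sum in which Chrnb1 weighs most. Singly, Rapsn was higher in the heart-rich mutant replicate 2 than in mutant replicate 1 (26 against 11 reads). Chrnb1 was lower there (126 against 157 reads). Chrna1, Chrnd, Chrng and Musk had 2 to 9 reads there against 1 to 8 reads, too few to order the mutants. Without mutant replicate 2 and control replicate 3 the median log2 difference of the 6 was -1.15. That fit leaves 1 mutant library. The calls of the 4 genes tested were lost there, as were those of most genes past the threshold.

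Of 8 smooth muscle genes 7 were tested and 1 fell, Actg2, an actin of smooth muscle, by 1.89 on the log2 scale (limma adjusted p = 0.0107). Cnn1, Myh11 and Acta2 had log2 differences of -1.37, -2.02 and -0.70 (limma adjusted p = 0.0516, 0.0772 and 0.127). Cnn1 and Myh11 passed with voom (adjusted p = 0.0276 and 0.0436) and without control replicate 2 (for Myh11 limma adjusted p = 0.0343), and Myh11 passed without control replicate 1 (limma adjusted p = 0.0427). Of 12 nerve and Schwann cell genes 11 were tested and 2 fell, Ret and Tubb3, the latter with a log2 difference of -0.82 (limma adjusted p = 0.0254 and 0.0485), with Prph at -0.68 (limma adjusted p = 0.0862). Neither Ret nor Tubb3 passed with the replicate block (limma adjusted p = 0.0571 and 0.0731), with TPM, without the filter or without control replicate 3, and Tubb3 did not pass without control replicate 1 either. Chat, which encodes the enzyme that makes acetylcholine, was listed at 0.0678 and 0.159 FPKM in mutant libraries and at 0.324, 0.196 and 0.195 FPKM in control libraries, on 3 to 17 reads each. Lung epithelial genes passed in 0 of 6 cases with limma, with 2 at an unadjusted p under 0.05 and 0 with voom. Foxa2, Epcam, Krt8 and Krt18 had log2 differences of -0.92, -0.92, -1.03 and -0.59 (limma adjusted p = 0.0833, 0.181, 0.284 and 0.463). Cdh1 had a log2 difference of -0.46, and Nkx2-1 went the other way at 0.0645 (limma adjusted p = 0.49 and 0.938). Without control replicate 1 the differences of Foxa2, Epcam, Krt8 and Krt18 shrank to -0.68, -0.57, -0.49 and -0.18. In that fit Foxa2 passed (limma adjusted p = 0.0452). The part of these cell types in the receptor result was not tested.

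**Figure D4:**
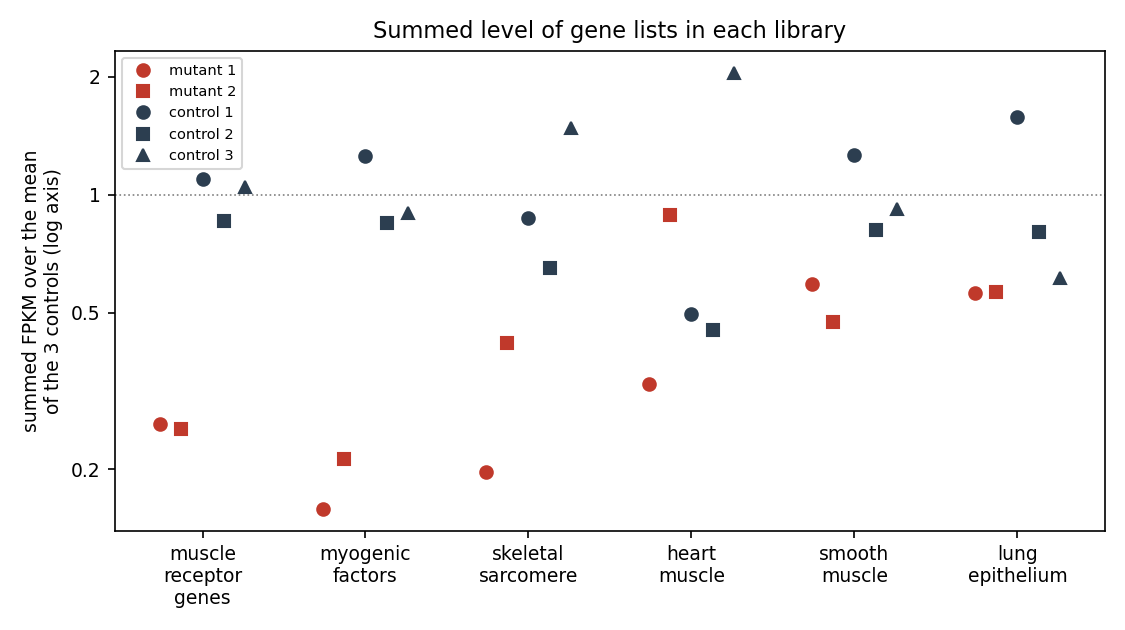
Summed FPKM of 6 gene lists in each library, divided by the mean of the 3 controls, on a log axis with red mutants and dark controls. The summed receptor genes, of which Chrnb1 is the largest part, separate the groups. The myogenic, sarcomere, smooth muscle and lung epithelial lists do so too. In heart muscle the groups overlap, with control replicate 3 and mutant replicate 2 highest.

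The 10 genes whose profile over the 5 libraries was nearest to the mean profile of the 6 receptor genes were found by the root mean square difference of centred log2(FPKM + 1). Myom3, which encodes a protein of the sarcomere's M-band, was nearest at 0.0471, followed by Neb, the nebulin gene, and Trim72, a muscle gene of membrane repair, at 0.0583 and 0.0609. Zfp943, Ret, Tnc and Tpm2 came next at 0.0731 to 0.0905, then Igf1, Slitrk1 and Mab21l2 at 0.104 to 0.114. The distance of single receptor genes from their own mean profile was 0.101 for Chrnb1 to 0.256 for Musk, so Tpm2 and the genes before it lay closer to the mean than any receptor gene. This measure says how alike 5 values are and nothing of shared function.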

How the data were processed

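The authors deposited 1 table of FPKM values with 5 library columns, the unit taken from the table's name. The build is GRCm38 (mm10), per the submitters' processing notes. The sources used here do not name an aligner, counter, annotation or strand setting. The labels' treatment text describes cultured fat cells and was not used. Gene lengths equal to GENCODE M21 exon lengths gave each library's total. Such lengths held for 13965 entries, 73.9% of those matched by symbol. For the rest a length was sought that made the values whole. All 5 values of all 19699 entries were then whole reads at a relative tolerance of 1e-09. That outcome was in part built in and is no check of the sought lengths. For the 6 receptor genes the lengths matched the annotation. Groups and replicate numbers came from titles. The test was limma 3.58.1 (R 4.3.3; lmFit, eBayes with trend, two-sided) on log2(FPKM + 1), with 12838 genes that reached 1 FPKM in 2 or more libraries and Benjamini-Hochberg adjustment over them. Exact permutation of 2 against 3 libraries cannot go below 0.1. The steps were tested on simulated reads that had the same spread for every gene. The simulated libraries did not differ in sex or tissue make-up, so that test does not cover such differences. Pooled read ratios have exact 95% binomial intervals. Named genes are the 6 receptor genes, Chrne, Agrn, Lrp4 and Dok7, up to 4 of smallest p per list, and the 10 nearest profiles. Some genes that this rule names are not reported here. Chat, Chrna7, Myl7, Cdh1, Nkx2-1, Cacna1s, Ryr1, Sypl2, Clcn1, Scn4a and the ratios between subunits were named after their values were seen. The members and lists were chosen with earlier results of these data known. Alternatives changed the pseudocount, filter, scaling, covariate, block, test and libraries.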

Additional observations from a re-analysis of the deposited data

How the results depend on the processing

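The log2 difference of each of the 6 receptor genes kept its sign under the alternatives fitted for them, which leave out voom at a mean of 50 reads or more. Their median, -1.22, was -2.55 with a pseudocount of 0.1 FPKM, -1.18 with median ratio scaling, -1.14 with quantile normalization, -1.92 with TPM, -1.05 with the male share, -1.18 with the replicate block and -3.73 with voom. It ranged from -1.25 to -1.17 when 1 library was left out and was -1.15 without the 2 heart-rich libraries, a choice made after seeing the data. Against sarcomere genes the median difference, 0.39, was 0.0330 with the male share and ranged from 0.0148 to 0.84 when 1 library was left out. It reversed to -0.42 with the pseudocount of 0.1 FPKM and to -1.45 with voom. TPM moved the median of all genes tested from -0.06 to -0.59.

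Of all genes 303 passed. The count was 67 with TPM, 69 without a filter, 3 with the male share, 608 with voom, 583 with voom at a mean of 50 reads or more (added later) and 5 without the heart-rich libraries. It ranged from 4 to 284 when 1 library was left out, with 4 without mutant replicate 1 and 11 without mutant replicate 2. Of these calls 58.1% were lower in mutants, against 46.8% with quantile normalization and 85.1% with TPM. Synapse partners went from 0 to 2 with voom and ranged from 0 to 1 when 1 library was left out. The other lists had 19 genes past the threshold, 6 with no filter, 0 with the male share and 3 without the heart-rich libraries, and ranged from 1 to 21 when 1 library was left out. Of the 4 receptor genes past it, Chrnb1 and Rapsn were lost when unfiltered, where Chrnd, not tested before, passed. With TPM Chrna1 alone passed, and with the replicate block Rapsn was lost.

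Of 22 other named genes past the threshold, 22 lost it with the male share, 21 without mutant replicate 1 and 20 without mutant replicate 2. Unfiltered, 15 of the 22 lost it, with TPM 14, with the replicate block 9 and with quantile normalization 6. Without control replicate 1 the losses were Cacng1, Mab21l2, Neb, Slitrk1, Trim72 and Tubb3. Without control replicate 2 they were Mab21l2, Myom3, Neb and Trim72, and without control replicate 3 Cacng1, Mab21l2, Myom3, Neb, Ret, Slitrk1, Trim72, Tubb3 and Zfp943. The lone mutant is assumed to vary like the controls. Libraries of equal replicate number had nearly uncorrelated deviations from their group means (-0.07 and 0.02), and the replicate block passed 259 genes. With 2 mutants, their deviations mirror each other, so these correlations cannot settle whether samples were paired. The cause of these shifts was not tested. With 1 to 11 mutant reads in a library for Musk, Chrnd, Chrna1, Chrng and Rapsn in mutant replicate 1, depth limits the size of their ratios.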

Other observations

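Set against myogenin, the ratio of Chrna1 to Myog FPKM was 0.0186 and 0.0147 in the mutants and 0.0594, 0.0663 and 0.0773 in the controls, a pair chosen after its values were seen. The mutant ratios rest on 3 and 5 reads of Chrna1. Fgf11, whose annotated end lies 124 bases before the start of Chrnb1 on the same strand (chromosome 11, 69796068 to 69801857, GRCm38), stood at 5.90 and 3.46 FPKM in mutant libraries against 11.7, 6.37 and 9.25 FPKM in control libraries. Its part in the Chrnb1 value was not tested. Of all genes tested, 67 (0.522%) had a pooled read ratio of control to mutant of 10 or more, and 4.75% had one of 2 or more.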
